A study of Homo sapiens with 9 samples.

Results

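The 3 control libraries of A498 cells were described on their own, as the baseline transcriptome of the line. A498 is an established human line of clear cell renal cell carcinoma (ccRCC). The libraries were chosen by their labels: of the 9 libraries in the series, the 3 biological replicates that expressed the control hairpin (shControl) were used, and nothing was compared with the depleted groups. The control cells carried a pLKO.1 lentivirus made in HEK293T cells, were selected and kept in puromycin, and grew in DMEM with fetal bovine serum. Their genotype is labelled WT, which refers to the lack of a targeted depletion. The data therefore describe infected and selected A498 cells, and not an untouched culture or a tumour.

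Clear cell carcinoma is thought to arise from proximal tubule epithelium, the part of the nephron that reabsorbs glucose, amino acids and small proteins from the filtrate. Most of these tumours lose the VHL protein, which normally marks the hypoxia-inducible factors for destruction. HIF1α and HIF2α then accumulate although oxygen is present, pair with ARNT and switch on genes of glycolysis, angiogenesis, pH control and lipid storage. The study from which the libraries come asked whether BMAL1, the clock partner of CLOCK, can also serve as a partner of HIF2α.

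RNA was measured by stranded mRNA sequencing. Levels are given as CPM, the counts of a gene per 1000000 counts of its library, and as RPKM, the CPM divided by the length in kilobases of the gene's canonical transcript. Ranks and orders by CPM, also within a list, follow the share of the library a gene took and are not corrected for length. Paralogs were compared by RPKM. All values after ± are the SD over the 3 libraries (n = 3). The libraries held 35287557, 35270328 and 35454609 counts, so that 3 counts corresponded to 0.0846 to 0.0851 CPM. A gene with no counts is reported as 0, which allows a level of up to 0.0851 CPM from counting error alone, if counts are independent. No test was made, because a single group was described.

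Library 1 stood apart in a few RNAs. The 45S pre-rRNA (RNA45S5), the precursor of the cytosolic ribosomal RNAs, had 90854 counts in library 1, 331010 in library 2 and 334450 in library 3. The nuclear long noncoding RNAs MALAT1 and NEAT1, chosen after their values were seen, were lower there as well. MALAT1 stood at 58.72, 93.93 and 100.5 CPM, and NEAT1 at 62.49, 105.2 and 100.5 CPM. All 13 mitochondrial protein genes were lowest in library 1, against 26.8% of the 12931 genes at 1 CPM or more in every library. The part of RNA selection or quality in these differences was not tested. Over all genes the libraries were close, with Pearson's r across genes on log2(CPM + 1) of 0.9965 to 0.9973 (genes are not independent replicates). A ratio over 2 between the highest and the lowest library was found for 41 of those 12931 genes (0.317%).

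The transcriptome was broad and steep. Of 27671 gene names in the table, 16918 had counts in all 3 libraries and 12931 (46.7%) reached 1 CPM in all 3, while 7978 (28.83%) had no counts in any. Of 18916 names that matched a protein-coding gene, 11871 (62.8%) reached 1 CPM and 3239 had no counts. Of 1339 matched long noncoding RNAs, 350 (26.1%) reached 1 CPM. The 72 most abundant genes held 25% of the counts, 501 genes held 50% and 4892 genes held 90%. The median of the genes at 1 CPM was 21.5 CPM, and the first gene lay 1147 times above it. Precision followed abundance. The median coefficient of variation between libraries was 10.8% for 4070 genes of 1 to 10 CPM, 5.01% for 7013 genes of 10 to 100 CPM and 2.87% for 1738 genes of 100 to 1000 CPM.

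**Figure D1:**
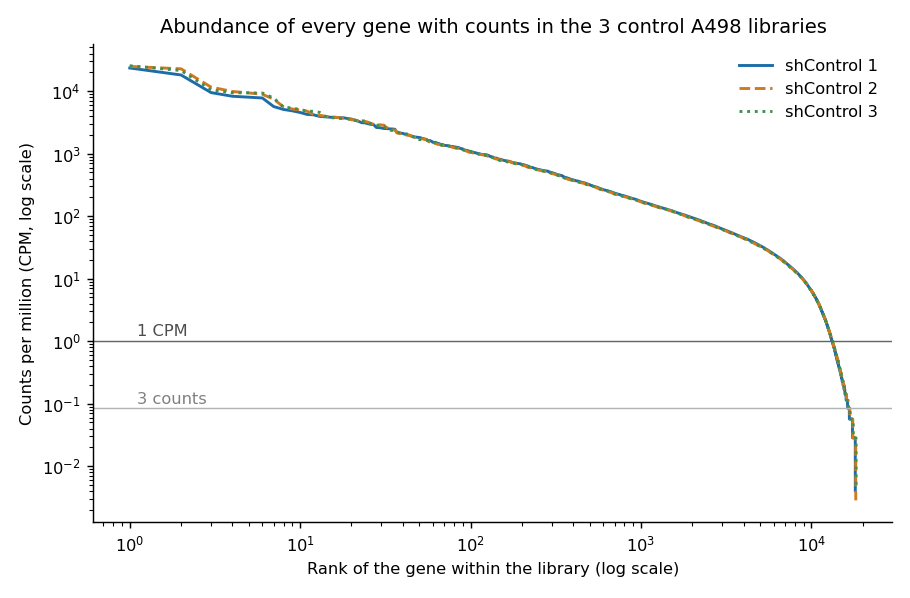
CPM of each gene with counts (vertical axis, log scale) against its rank within the library (horizontal axis, log scale), with a line for each of the 3 shControl libraries. The lines overlie each other except among the first ranks, and cross 1 CPM after about 13217 to 13268 genes.

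The most abundant RNAs were mitochondrial, structural and glycolytic. The 20 genes of highest mean CPM held 14.4% ± 0.964 of the counts (13.3%, 15% and 14.9%). Among the 30 highest, 8 were encoded by the mitochondrial genome. RNR2, the large mitochondrial ribosomal RNA, was first with 23496, 24871 and 25547 CPM. COX1, a catalytic subunit of complex IV of the respiratory chain, followed with 18158, 22789 and 21373 CPM. COX3, ND4 and COX2 came next with means of 8844 to 10534 CPM. The 13 mitochondrial protein genes together took 6.03%, 7.34% and 6.92% of the counts. When library 1 was left out, 29 of the 30 genes stayed among the first 30, and RNA45S5 rose from rank 7 (7131 ± 3946 CPM) to rank 5 (9409 CPM).

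IGFBP3 had the highest mean CPM of all RNAs encoded in the nucleus (rank 6), and in libraries 2 and 3 it came after 45S pre-rRNA. It encodes a secreted carrier of insulin-like growth factors and lies on chromosome 7 (45951844 to 45961473, GRCh37). IGFBP3 had 274595, 263012 and 274870 counts, or 7664 ± 180 CPM. The 3 values lay within a ratio of 1.04. Per length it stood at 2933 ± 68.8 RPKM, first among the nuclear protein-coding genes, before GAPDH with 2732 ± 47 RPKM. The SDs of these 2 genes did not overlap.

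Genes of the mesenchymal cytoskeleton and the matrix filled much of the remainder of the first 30. VIM, the intermediate filament protein vimentin, had 5665, 5574 and 5541 CPM. SPARC, a collagen-binding matrix protein, had 5092, 5185 and 5372 CPM. FN1, which encodes fibronectin, had 4559, 4123 and 4760 CPM, and TGFBI, another matrix adhesion protein, 4181, 4214 and 4584 CPM. The collagen and elastin cross-linking enzyme LOXL2 had 3811 ± 79.6 CPM, and the collagen-modifying P4HB 3380 ± 51.6 CPM. The filamins FLNC and FLNA, which cross-link actin, reached 3754 ± 81.5 and 3675 ± 79.2 CPM. Cytoplasmic actins ACTB (3823 ± 153 CPM) and ACTG1 (2867 ± 83.5 CPM) were also in the group, with the reserve that near-identical coding sequences and pseudogenes may share reads.

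The other genes of the first 30 came from metabolism, translation and turnover. The glycolytic enzymes ALDOA, GAPDH and PKM had means of 3716, 3510 and 2969 CPM. EEF2, which moves the ribosome along the message, had 4811 ± 33.9 CPM, the narrowest spread among the 30 (a coefficient of variation of 0.705%). The lysosomal protease CTSD had 3332 ± 34.3 CPM. NDRG1, a hypoxia-responsive gene, had 3927 ± 45.5 CPM. CP, which encodes the ferroxidase ceruloplasmin, had 3126, 2934 and 2893 CPM. AKR1B10, an aldo-keto reductase, had 2943, 2857 and 3136 CPM. APOL1, an apolipoprotein known for its kidney risk alleles, had 3644, 3461 and 3366 CPM. For 20 of the 30 genes the coefficient of variation was under 5%.

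By class, the counts were stable between libraries where rRNA and the mitochondrial genome were not involved. The 90 names of cytosolic ribosomal proteins took 3.82%, 3.75% and 3.7% of the counts (3.76% ± 0.0605). The 25 glycolytic enzymes took 1.78% ± 0.0204, the 44 collagen chains 0.728% ± 0.00478 and the 55 keratins 0.165% ± 0.00123. Long noncoding RNAs took 0.666% ± 0.00373. Exact binomial 95% intervals of these shares reached at most 0.012 percentage points to either side and cover the counting error of independent counts alone. The 45S pre-rRNA gave 0.257%, 0.938% and 0.943%, a spread far outside that error.

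**Figure D2:**
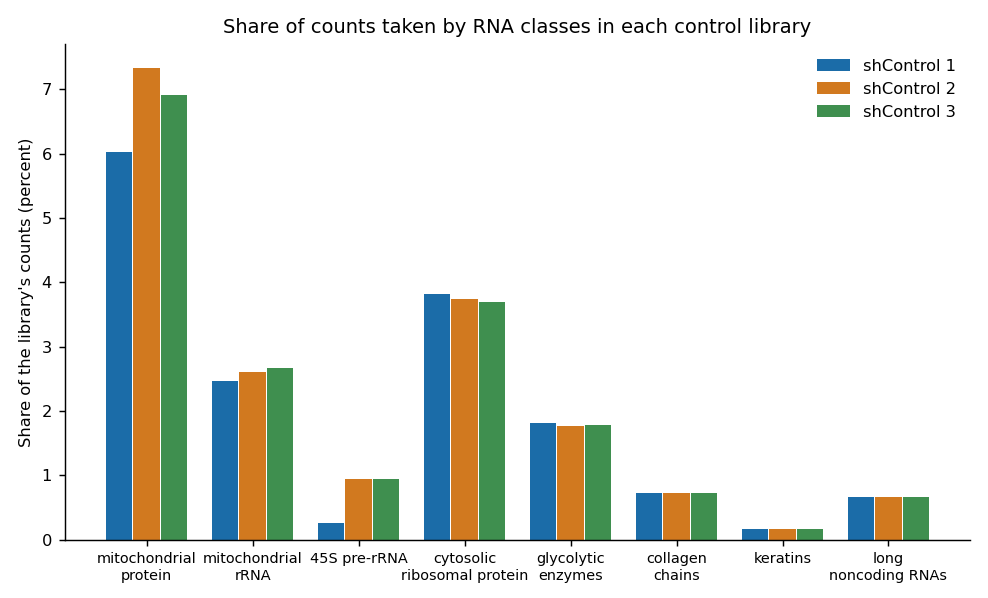
Share of the counts (percent, vertical axis from 0) taken by 8 RNA classes, with a bar for each shControl library. Mitochondrial protein genes and 45S pre-rRNA are lowest in library 1, and the bars of collagens, keratins and long noncoding RNAs are level.

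Among long noncoding RNAs, 11 reached 100 CPM in all libraries. NORAD, listed under its older name LINC00657, was first by CPM with 798.2, 744.4 and 713.9 CPM. It is a cytoplasmic RNA that binds PUMILIO proteins and lies on chromosome 20 (34633540 to 34638940, GRCh37). C17orf76-AS1, now SNHG29, a host of small nucleolar RNAs, had 597.6 ± 10.9 CPM. Per length it stood at 1349 ± 24.6 RPKM, above NORAD with 139.3 ± 7.9 RPKM. AFAP1-AS1, transcribed from the strand opposite AFAP1, had 421.7 ± 19.1 CPM, and FAM13A-AS1 139.6 ± 4.05 CPM. Reads of such antisense genes and of their partners cannot be told apart unless strand was used in counting, which was not stated. SLX1B-SULT1A4, DYX1C1-CCPG1 and SLX1A-SULT1A3 also ranked here, and these are readthrough entries that share exons with protein-coding neighbours. TRIM16L (146.9 ± 6.42 CPM) and ZFAS1 (120.9 ± 4.06 CPM) were also among the first 10.

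The label of the cells was checked against markers, which were chosen with earlier results of these data known. The numbers of markers at 1 CPM stand beside 62.8% of protein-coding genes. All 9 renal epithelial markers, among them PAX8, PAX2, LHX1, CDH6, CDH16, KRT8, KRT18 and MME, reached 1 CPM in all libraries, with a summed level of 1917 to 1950 CPM. Most of this sum came from KRT8 (1029 ± 10.6 CPM) and KRT18 (529.6 ± 2.96 CPM), keratins of simple epithelia. PAX8, LHX1, PAX2 and CDH16 had means of 7.115 to 33.67 CPM. Of 7 ccRCC markers, 6 reached 1 CPM, with sums of 3223 to 3387 CPM. NDUFA4L2, a complex I-associated protein that is usually prominent in ccRCC, was the exception with 0.4251, 0.2835 and 0.4513 CPM. Of 6 markers of mature proximal tubule, only CUBN and SLC5A2 reached 1 CPM, and the sum was 21.8 to 23.7 CPM. That sum depends on the 6 chosen. In the longer list of 34 proximal tubule genes, 14 reached 1 CPM and 15 stayed under it in all libraries. Among the 14 were ANPEP (1634 ± 18.7 CPM) and CDH6, CDH16 and MME, counted above as renal epithelial. Markers of blood, endothelium, fibroblasts, hepatocytes, squamous epithelium, pluripotent cells and the packaging cells numbered 21. Of these, 8 had no counts, beside 3239 of 18916 protein-coding genes. COL1A1 (221.5 ± 5.02 CPM) and POU5F1 (1.981 ± 0.441 CPM) reached 1 CPM, and the other 19 summed to 1.28 to 1.64 CPM. This panel is small, and CD68, SERPINA1, AFP and TEK, which belong to the longer lineage lists, reached 1 CPM. LIN28A and LIN28B, markers of the packaging line, were at 0 in all libraries.

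Kidney lineage factors are the transcription factors that shape the nephron and keep its epithelium. Of 35, 20 (57.1%) reached 1 CPM in all libraries, beside 62.8% of protein-coding genes, and 7 had no counts. HNF4A, the nuclear receptor that drives proximal tubule differentiation, was first with 284.9, 286.8 and 281.3 CPM (chromosome 20, 42984339 to 43061485, GRCh37). ZNF395, a factor raised in ccRCC, had 155.8, 148.7 and 147.8 CPM. SALL1, a factor of nephron progenitors, had 48.12 ± 1.74 CPM, and PAX8, the standard diagnostic factor of renal tumours, 31.85, 34.73 and 34.44 CPM. IRX3, of the developing tubule, had 27.59 ± 0.428 CPM. LHX1, an early nephron factor, had 15.39, 14.15 and 10.21 CPM, the widest relative spread of those above 10 CPM. PAX2 followed with 9.214 ± 0.961 CPM.

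Factors known from other parts of the kidney were mixed. TFAP2A and POU3F3, of the distal nephron, had 19.69 ± 0.531 and 14.88 ± 0.375 CPM, MECOM 8.886 ± 1.05 CPM and FOXD1, of stromal progenitors, 4.284 ± 0.669 CPM. FOXI1, the master factor of intercalated cells, TFAP2B, of the distal tubule, and GRHL2, of the collecting duct, had no counts. EMX2, IRX1, SIM2 and TCF21 had none either. WT1, the factor of podocytes and nephron progenitors, had 0.0566 ± 0.0284 CPM, which is under the level of 3 counts. SIX2, the marker of the uninduced progenitor, had 1.332, 0.8506 and 1.326 CPM and so straddled the limit. Body-position genes of the HOX clusters were present. HOXA9 had 12.1 ± 1.29 CPM and HOXD10 12.16 ± 1.51 CPM. The readthrough entry HOXA10-HOXA9 held a further 994, 1073 and 1157 counts, so the level of HOXA9 is uncertain.

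Genes of the nephron segments numbered 78 in the table, of which 32 (41%) reached 1 CPM and 14 had no counts. Without the genes of injured or progenitor-like tubule, 23 of 67 (34.3%) reached 1 CPM, beside 62.8% of protein-coding genes. For the proximal tubule the count was 14 of 34, among them brush-border peptidases, scaffolds, cadherins and transporters. ANPEP, a membrane aminopeptidase, had 1634, 1615 and 1652 CPM. GGT1, the glutathione-cleaving transferase, had 114.5, 102.5 and 101.1 CPM. CDH6, a cadherin of the early tubule, had 186.2 ± 2.72 CPM. PDZK1, a scaffold of brush-border transporters, and its partner PDZK1IP1 had 96.93 ± 0.742 and 92.64 ± 4.77 CPM.

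Several transporters and gluconeogenic enzymes of the proximal tubule had few or no counts. LRP2, the endocytic receptor megalin, had no counts, and its partner CUBN had 1.899, 2.098 and 1.608 CPM. SLC22A6 and SLC22A8, which take up organic anions, and G6PC, the last enzyme of gluconeogenesis, had no counts. FBP1, another enzyme of that pathway, had counts in library 2 alone (0.02835 CPM). SLC34A1, the phosphate transporter, had 0.1321 ± 0.0433 CPM. Other transporters were present. SLC5A2, the glucose transporter SGLT2, had 20.89, 18.88 and 19.94 CPM. SLC3A1, a subunit of the cystine transporter, had 9.744 ± 0.2 CPM and SLC13A3, a dicarboxylate transporter, 6.019 ± 0.329 CPM, while SLC5A1 (SGLT1) had 0.1226 ± 0.0325 CPM. AQP1, the water channel, straddled the limit with 0.7935, 0.6805 and 1.015 CPM.

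Other segments varied in their share of genes at 1 CPM. Of 6 podocyte genes, SYNPO (754.6 ± 8.55 CPM), an actin-binding protein, and PODXL (6.83 ± 0.153 CPM), a surface sialomucin, reached it. Of 10 genes of collecting duct principal cells, 5 did so, and all were low, with KRT19 first (8.971 ± 0.803 CPM). None of 5 genes of the distal convoluted tubule, 1 of 5 of the loop of Henle (CLDN10) and 1 of 7 of intercalated cells (SLC26A4) reached 1 CPM. UMOD and SLC12A1, which define the thick ascending limb, had no counts, nor had AQP2, the water channel of principal cells. Of genes of injured or progenitor-like tubule, 9 of 11 (81.8%) reached 1 CPM, beside 62.8% of protein-coding genes. At 100 CPM were 6 of them, beside 1789 of all 27671 gene names, which include noncoding and unmatched names. These 6 included VIM and the simple-epithelial keratins KRT8 and KRT18. SPP1, which encodes osteopontin, had 2133, 2110 and 2237 CPM. KRT8 had 1029 ± 10.6 CPM, KRT18 529.6 ± 2.96 CPM and CLU 251.8 ± 4.85 CPM. VCAM1, an adhesion molecule of failed tubule repair, had 163.6, 152.8 and 161 CPM. HAVCR1, the injury marker KIM-1, had 67.39, 66.4 and 55.87 CPM. PROM1 remained under 1 CPM.

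**Figure D3:**
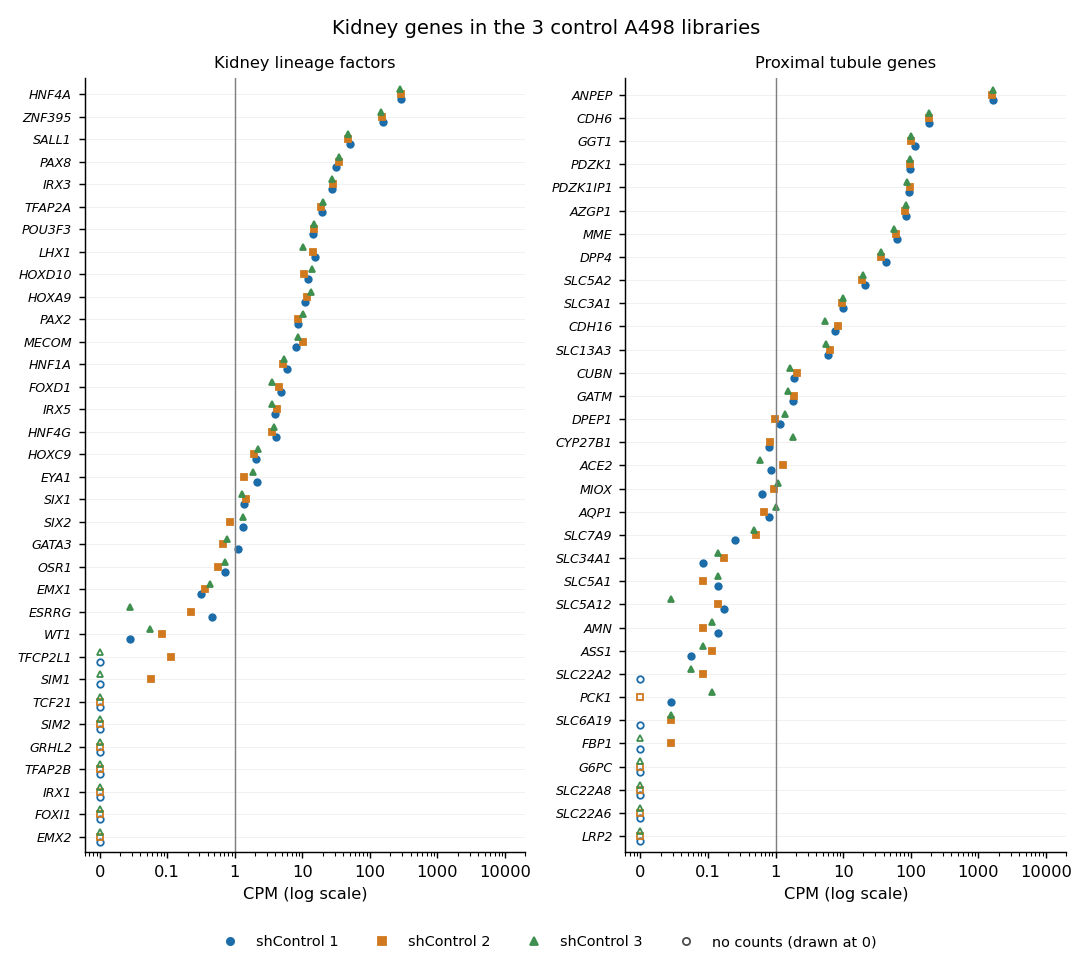
CPM (horizontal axis, log scale, genes with no counts drawn open at 0) of 34 kidney lineage factors (left) and 33 proximal tubule genes (right) in each shControl library. The line marks 1 CPM. HNF4A leads the factors and ANPEP the tubule genes, and LRP2, SLC22A6, SLC22A8 and G6PC lie at 0.

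Of 82 renal carcinoma genes, 64 (78%) reached 1 CPM, beside 62.8% of protein-coding genes. At 100 CPM were 30 of the 82, beside 1789 of all 27671 gene names, which include noncoding and unmatched names. Of all names, 46.7% reached 1 CPM, so this base is lower than that of protein-coding genes. Of 30 HIF target genes, 27 (90%) reached 1 CPM and 18 reached 100 CPM. Their median was 189 CPM, beside 21.5 CPM for all genes at 1 CPM. By CPM, IGFBP3, NDRG1 and CP led these HIF targets. PLIN2, the coat protein of lipid droplets, had 1153, 1166 and 1256 CPM. VEGFA, the angiogenic growth factor, had 736.3, 790.6 and 784 CPM. ANGPTL4, an inhibitor of lipoprotein lipase, had 566.8 ± 15.9 CPM, and SLC2A1, the glucose transporter GLUT1, 540.9 ± 6.23 CPM. CCND1, the G1 cyclin that is a known HIF2α target in this tumour, had 329.4, 315.9 and 308.6 CPM. TGFA, a ligand of EGFR, had 175 ± 6.65 CPM and EGFR 231.9 ± 21 CPM, so both the ligand and its receptor were present. The exceptions were NDUFA4L2, ESM1 and EPO. ESM1, an endothelial product, and EPO, the hormone of renal interstitial cells, had no counts.

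The tumour suppressors on chromosome 3p all reached 1 CPM, and VHL was the lowest of them by CPM. VHL had 7.368, 7.372 and 8.208 CPM, PBRM1 27.35 ± 2.05, SETD2 51.88 ± 4.27 and BAP1 91 ± 4.11 CPM. Counts per gene say nothing of mutations or of protein. Of 21 other recurrently altered genes, 18 (85.7%) reached 1 CPM, beside 62.8% of protein-coding genes. KDM5C had 184.3 ± 5.14 CPM and MET 373.4 ± 10.6 CPM.

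CDKN2A and CDKN2B, neighbouring inhibitors of the G1 kinases on chromosome 9, had no counts in any library. CDKN2A spans 21967751 to 21995300 (GRCh37). MTAP, which lies before it, had 1342, 1269 and 1335 counts (37.22 ± 1.09 CPM). DMRTA1, the next protein-coding gene beyond CDKN2B and chosen after its values were seen, had 598, 606 and 634 counts (17.34 ± 0.487 CPM). The antisense RNA CDKN2B-AS1, also chosen afterwards, had 2 counts in library 3 and none in the others. The silent stretch was thus flanked by transcribed genes on both sides. Whether DNA was lost there cannot be read from these counts.

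Among 18 therapy and imaging targets, 10 (55.6%) reached 1 CPM, beside 62.8% of protein-coding genes. AXL, a receptor kinase, had 460.7, 460.3 and 447 CPM. EPAS1, which encodes HIF2α, had 312, 316 and 341.2 CPM. TNFRSF10B (a death receptor), FGFR1 and CD70 (a ligand of the TNF family) had 295.7 ± 8.42, 254.2 ± 8.09 and 246.1 ± 13.4 CPM. ENPP3, an ectoenzyme, had 101, 91.21 and 90.12 CPM. Receptors that kinase inhibitors reach in tumour vessels were low. PDGFRB had 1.842, 2.325 and 2.003 CPM and FLT4 (VEGFR3) 0.1417, 0.2835 and 0.6769 CPM. KDR (VEGFR2) had counts in library 3 alone (0.05641 CPM) and FLT1 (VEGFR1) in library 2 alone (0.08506 CPM). CD274 (PD-L1) had 2.227 ± 0.577 CPM and PDCD1LG2 (PD-L2) no counts. Of 9 markers of papillary, chromophobe and other renal tumours, 5 (55.6%) reached 1 CPM, again beside 62.8% of protein-coding genes. They included AMACR, a peroxisomal racemase, with 16.11 ± 0.527 CPM. The readthrough entry C1QTNF3-AMACR held 85.4% of the counts of the locus, so the level of AMACR is uncertain. CDH1 (E-cadherin) had 0, 0.1701 and 0.1128 CPM and EPCAM 0.3869 ± 0.0919 CPM.

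**Figure D4:**
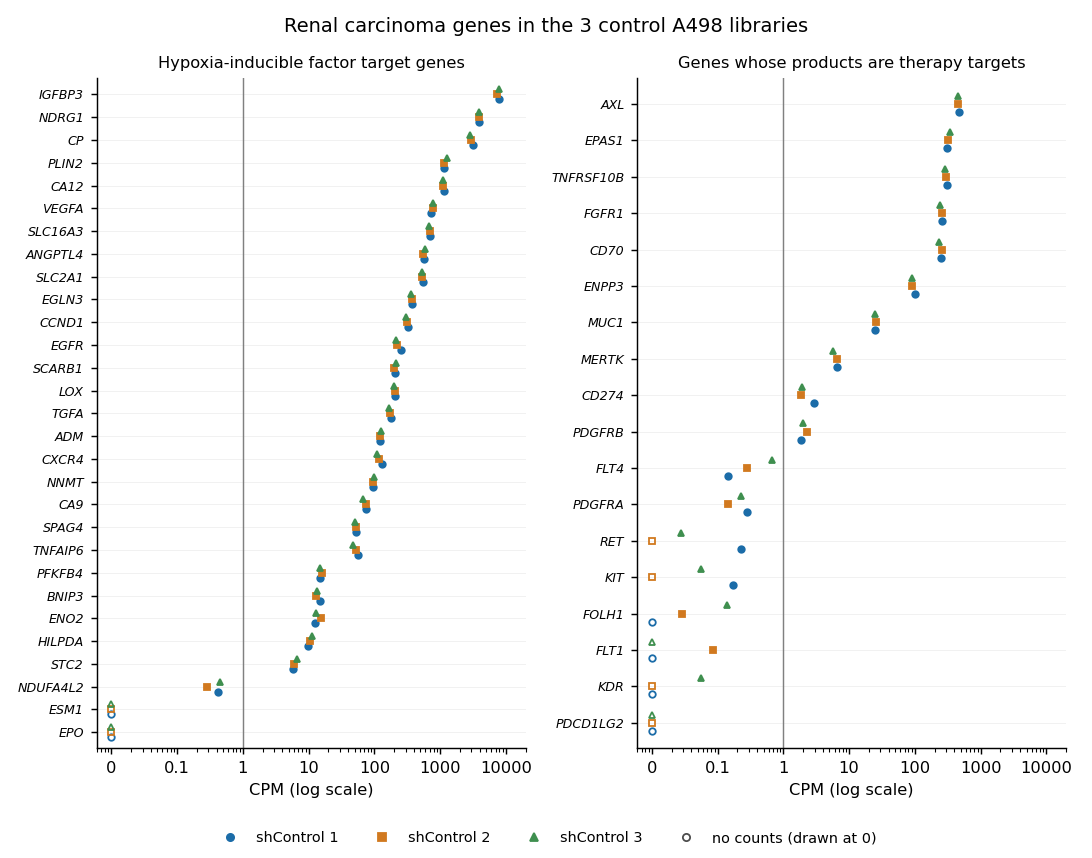
CPM (horizontal axis, log scale, genes with no counts drawn open at 0) of 29 HIF target genes (left) and 18 therapy and imaging targets (right) in each shControl library. Of the HIF targets drawn, 26 lie right of the 1 CPM line, and KDR and FLT1 lie near 0.

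Paralogs were compared by RPKM in 68 families. The same member was first in all 3 libraries in 66 families. In 59 it held over 50% of the family's summed RPKM in every library, in 20 over 90%, and in 8 families a lone member reached 1 CPM. The first and second members overlapped in 2 families, among them the ERBB receptors, where EGFR (23.41 ± 2.12 RPKM) could not be set apart from ERBB2 (21.97 ± 0.698 RPKM). In 6 families the first member depended on the length used or on using none. Among these were the isocitrate dehydrogenases, BCL2 survival proteins, HSP90, glutathione peroxidases and DNA methyltransferases.

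Among HIF alpha subunits, EPAS1 stood at 60.5, 61.3 and 66.2 RPKM and HIF1A at 31.8, 33 and 34.6 RPKM. EPAS1 took 65.4% ± 0.365 of the HIF alpha family and HIF3A 0.0301% ± 0.013. Among the partners, ARNT stood at 9.64, 10 and 10.4 RPKM, ARNTL (the older symbol of BMAL1) at 5.65, 5.33 and 5.42 RPKM and ARNT2 at 4.02, 3.23 and 3.78 RPKM. These 3 did not overlap in RPKM, but by CPM, without length, ARNT2 (24 ± 2.63) was above ARNTL (15.24 ± 0.463) in every library. ARNTL2 (BMAL2) was lowest with 0.4099 ± 0.0714 RPKM. ARNT held 49% to 53% of the partners' sum and ARNTL 27.9% ± 0.89. The summed RPKM of the partners was thus lower than that of EPAS1 alone in every library. NPAS2, a paralog of CLOCK, stood at 7.93, 7.47 and 7.7 RPKM and CLOCK at 1.65, 1.31 and 1.24 RPKM.

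EGLN3, the prolyl hydroxylase that is itself a HIF target, led its family with 139, 137 and 132 RPKM, and EGLN1, the main oxygen sensor in most cells, had 10.32 ± 0.347 RPKM. EGLN2 was listed at 0.0283 CPM, but its reads may sit on the readthrough entry RAB4B-EGLN2, which had 92.38, 86.8 and 87.9 CPM. With these added, EGLN2 would have 42.41 ± 1.4 RPKM and rank second, still below EGLN3. Among clock repressors, PER1 stood at 2.27, 2.1 and 1.98 RPKM and PER2 at 1.07, 1.18 and 1.17 RPKM. CRY1 had 5.979 ± 0.745 RPKM and CRY2 3.268 ± 0.177 RPKM. The hour of harvest and any synchronization are not given in the labels, so clock genes are levels of unspecified phase.

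Carbonic anhydrases gave a case where the best known ccRCC member was not the first. CA12, a membrane enzyme of pH control, stood at 187, 179 and 179 RPKM (66% ± 1.02 of the family). CA9, the classical hypoxia marker, stood at 47.5, 48.4 and 43 RPKM, and CA2, the cytosolic form, at 43.8, 45.4 and 43 RPKM, so CA9 and CA2 overlapped. The 250 bases before the RefSeq start of both genes are shown because the HIF binding core has been mapped to the CA9 promoter. Sequences are from RefSeq (GRCh38.p14), on the strand of the gene, for CA12 at chr15:63381847-63382096 (minus strand) and for CA9 at chr9:35673678-35673927 (plus strand). Capitals mark the core ACGTG or its reverse complement CACGT.
CA12: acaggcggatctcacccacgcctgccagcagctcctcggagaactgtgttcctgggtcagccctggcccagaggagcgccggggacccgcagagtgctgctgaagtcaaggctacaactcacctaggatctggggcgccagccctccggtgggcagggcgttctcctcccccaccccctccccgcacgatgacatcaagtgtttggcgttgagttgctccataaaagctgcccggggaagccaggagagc
CA9: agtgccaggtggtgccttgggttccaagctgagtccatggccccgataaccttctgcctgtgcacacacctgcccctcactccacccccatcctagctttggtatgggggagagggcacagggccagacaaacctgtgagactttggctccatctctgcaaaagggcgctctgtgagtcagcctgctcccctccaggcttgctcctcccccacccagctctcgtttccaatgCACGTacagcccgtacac

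In CA9 the core ACGTG lay once, on the opposite strand, and CA12 held no ACGTG in this window. The paper writes the response element more widely, as N(G/A)CGTG, which also allows GCGTG. That form was not searched, and its reverse complement CACGC occurs in the CA12 window. The 2 windows therefore do not differ in holding an element of the wider form. Of 27305 RefSeq promoters of this length, 18.7% held the core ACGTG on either strand. This motif overlaps the E-box CACGTG, which contains it and was held by 6.49%. Among 14986 protein-coding genes with a promoter in the table, the share with the core was 14.1% of the 2425 genes with no counts, 16.9% of 2500 genes with counts that stayed under 1 CPM, 21.8% at 1 to 10 CPM, 24.1% at 10 to 100 CPM and 26% of 1479 genes at 100 CPM or more. GC content moved with abundance too, from a median of 52% to one of 66%, and its part in these shares was not tested. The letters TATAAA, on either strand, went the other way, with 20.7% of promoters of genes with no counts and 5.61% at 100 CPM or more. A match describes letters and not a bound site.

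Glycolytic families were led by ubiquitous isoforms. ALDOA held 98.9% ± 0.042 of the aldolases, ENO1 98.9% ± 0.15 of the enolases and HK1 96.6% ± 0.15 of the hexokinases. PKM stood at 1307, 1253 and 1304 RPKM, whereas PKLR, which encodes the liver and red blood cell isoforms, had 0.04648 ± 0.0279 RPKM. PFKP, the platelet-type phosphofructokinase, held 68.7% ± 0.77 of its family. LDHA stood at 679, 650 and 688 RPKM and LDHB at 298, 297 and 309 RPKM, a ratio of 2.19 to 2.28. SLC2A1 held 82% ± 0.064 of the glucose transporters, and SLC16A3, the lactate exporter MCT4, 80.7% ± 0.398 of its family. PDK2 rather than PDK1, the member usually linked to HIF, led the pyruvate dehydrogenase kinases with 90.7% ± 0.457. PDK2 stood at 27.85 ± 0.411 RPKM and PDK1 at 0.6656 ± 0.031 RPKM over a canonical transcript of 14.1 kb, so that its RPKM depends on the isoform taken.

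Growth signalling and structure had clear first members too. VEGFA held 87.9% ± 0.117 of the VEGF ligands. In that sum FIGF, which encodes VEGFD, counted as 0. The readthrough entry PIR-FIGF held 92.1% of the counts of its locus, so the level of FIGF is uncertain. NRP1, a co-receptor, held 78.9% ± 0.285 of the receptors and neuropilins, with KDR, FLT1 and FLT4 under 1 CPM in every library. FGFR4 led the FGF receptors with 93.54 ± 5.3 RPKM and FGFR1 followed with 44.62 ± 1.42 RPKM. AXL (97.7, 97.6 and 94.8 RPKM) was above MET (56.5, 53.9 and 53.8 RPKM). CDK4 stood at 79.85 ± 0.515 RPKM and CDK6 at 0.2369 ± 0.0164 RPKM. CCND1 was first of the D-type cyclins with 77.7, 74.5 and 72.8 RPKM, and CCND2 had no counts. WWTR1, which encodes TAZ, was above YAP1 with 15.66 ± 0.28 against 6.763 ± 0.204 RPKM.

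CDH2 (N-cadherin), at 56.28 ± 0.184 RPKM, and CDH6, at 21.8 ± 0.318 RPKM, led the cadherins, with CDH1 near 0. KRT8 held 99.7% ± 0.02 of the type II keratins and KRT18, its partner in simple epithelia, 88.1% ± 0.236 of the type I keratins. Vimentin was thus abundant beside a simple-epithelial keratin pair and N-cadherin. LOXL2 held 96.1% ± 0.027 of the lysyl oxidases. FTL, the ferritin light chain, stood at 2132 ± 39.4 RPKM against 644.2 ± 14.6 RPKM for FTH1, and both have many pseudogenes that may share reads.

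**Figure D5:**
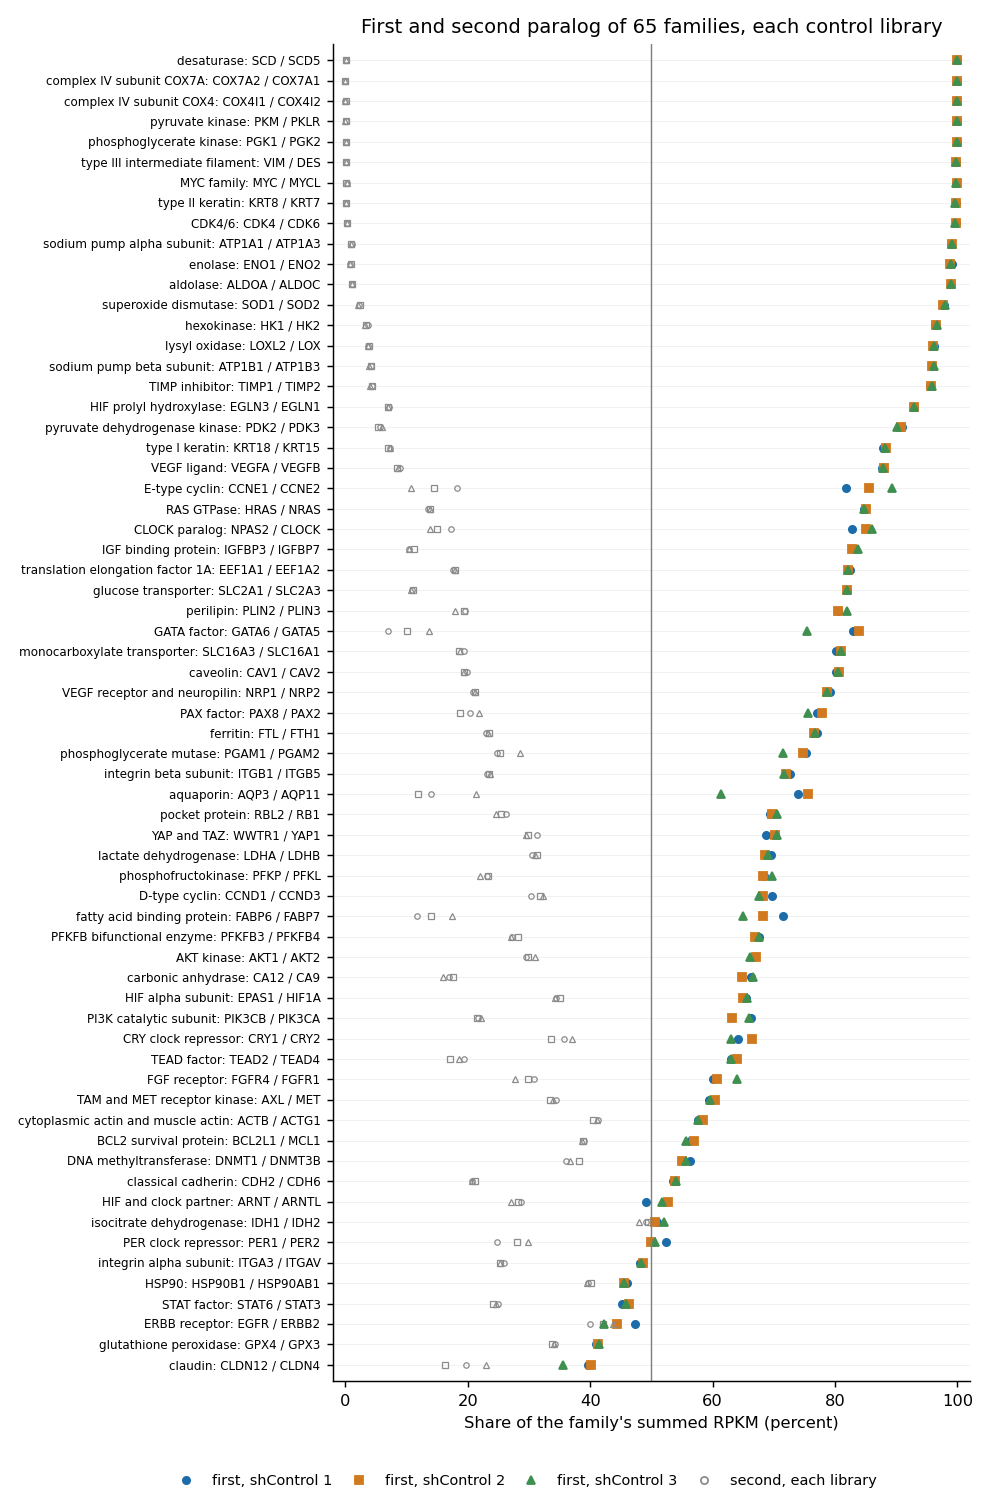
Share of the family's summed RPKM (percent, horizontal axis) held by the first member (filled) and the second member (open) of 65 families in each shControl library. The vertical line marks 50%. In 57 of these families the first member lies right of it in all 3 libraries.

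Genes of other lineages were mostly under 1 CPM. Of 86, 65 had under 1 CPM in all libraries. No counts were found for 35 of them, beside 3239 of 18916 protein-coding genes. Those 35 included SPI1 and HBB of blood, MYOD1 of muscle, SOX10 and OLIG2 of neural lineages, NKX2-1 of lung and thyroid and ESR1 of breast. In bulk RNA, fewer cells of a type and less RNA per cell cannot be told apart. A total of 19 genes (22.1%) reached 1 CPM, beside 62.8% of protein-coding genes. CD68, a lysosomal protein used as a macrophage marker, had 1797, 1777 and 1664 CPM, although PTPRC, the marker of all white blood cells, had 0.2171 ± 0.108 CPM and SPI1 none. NEFL, a neurofilament subunit, had 285.6, 276.5 and 276.9 CPM, beside no counts for the neuronal gene RBFOX3. SERPINA1, an antitrypsin made mainly in liver, had 239.6, 238.3 and 218.5 CPM, whereas ALB had 0.3299 ± 0.127 CPM.

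COL1A1 had 216, 222.7 and 225.8 CPM but COL1A2, whose product normally forms type I collagen with it, had 0.04724 ± 0.0433 CPM. The fibroblast markers DCN, LUM and COL3A1 were under 0.4 CPM in every library. ACTA2 (53.95 ± 1.47 CPM) and TUBB3 (72.41 ± 2.97 CPM) were moderate. MITF had 22.36 ± 3 CPM and its melanocyte target PMEL 13.69 ± 0.594 CPM, and TYR no counts. POU5F1 had 1.981 ± 0.441 CPM, and has pseudogenes that may share reads, beside no counts of NANOG.

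Some genes varied more between libraries than their depth would give. Of 11638 genes with a mean of at least 100 counts, SPATA21 was the most uneven with 175.6, 0 and 810 counts. BIVM-ERCC5, a readthrough entry, had 704.571, 16.429 and 671.929 counts, while ERCC5 had 3969, 4735 and 3900.5 (chosen after its values were seen). PCDHA11, of a protocadherin cluster with shared exons, had 74.158, 548 and 561 counts. RCE1 had 267.667, 590 and 293.667 counts. Many of these values are fractions, as reads divided among overlapping genes would give, and that part was not tested. In all, 38 of 99 readthrough entries held over 50% of the counts of their own name and the names of their neighbours combined, and 36 neighbours beside them were under 1 CPM. SENP3-EIF4A1, for example, had 24351.889, 23145.801 and 24444.869 counts and EIF4A1, a translation helicase, 144.433, 262.28 and 165.112. A low value of a gene that shares a readthrough entry is therefore uncertain.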

How the data were processed

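The data were 3 shControl libraries of A498 cells (stranded mRNA, paired-end, BGISEQ-500). The deposited values were expected counts per gene, not normalized. Per the study's methods the authors aligned reads to GRCh37 with SeqMan NGen 17 and exported counts with ArrayStar 17, whereas the submitters' processing notes name STAR, DESeq2 and hg38. The table gives gene names and no coordinates, so coordinates printed here are those of GENCODE release 44 lifted to GRCh37 and do not depend on the build used. The annotation release, use of strand, handling of reads with several alignments, and whether reads or pairs were counted are not given in the sources used here. From 720 to 771 values per library were fractions.

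The value 0.05, which stands for no reads, was set to 0, and rows with the same name were summed (27716 rows, 45 repeated names, 27671 genes). Another 26 names were dates left by a spreadsheet, of which 16 reached 1 CPM. CPM used the library total, without further scaling. Of the names, 21072 matched a current symbol, 1438 an older symbol and 15 a mitochondrial gene, and 5146 had no match and no RPKM. Replicates differed by more than independent counts would give (chi-square per gene of 2.12 to 2.46 at 10 to 50 counts), so none were merged. Counting both reads of a pair would also raise this value, and that part was not tested. The common dispersion of edgeR 4.0.16 corresponded to a coefficient of variation of 5.58%. Python 3.11.15, pandas 2.3.3, numpy 2.4.6, SciPy 1.17.1 and R 4.3.3 were used, and computations were tested on simulated data.

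Genes named were the 30 of highest mean CPM, the 10 highest long noncoding RNAs, the 10 protein-coding genes of highest RPKM, the 10 most uneven genes with a mean of at least 100 counts, and every gene of the lists, which were written from general knowledge. Members and lists were chosen with earlier results of these data known. Some of these genes are not reported here or drawn in the figures, but they count in the totals. Other genes are marked as chosen after their values were seen. Alternatives were TMM and DESeq2 1.42.0 size factors, thresholds of 0.5 and 5 CPM or 1 RPKM, at least 10 counts, other lengths, rounding, and leaving out each library.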

Additional observations from a re-analysis of the deposited data

How the results depend on the processing

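Of 89 alternative values, 84 stayed within 1.5 times a main count or within 1 SD of a main share. The limit for counts was wide, and counts within it still depended on the threshold. At 5 CPM, 10331 genes, 14 kidney factors, 26 nephron genes and 61 renal carcinoma genes passed. At 0.5 CPM these numbers were 13861, 23, 39 and 64. The 5 values outside the limits were shares. On summed RPKM, the 20 most abundant genes held 22.9%, mitochondrial protein genes 15.8% and ribosomal protein genes 8.35%. With mitochondrial genes and 45S pre-rRNA taken out of the totals, an alternative chosen after seeing the data, the 20 most abundant genes held 8.97% and ribosomal protein genes 4.18%, and all CPM rose by 9.59% to 12.2%. Leaving out 1 library at a time gave 17219 to 17350 genes detected, 13019 to 13055 genes at 1 CPM, 20 to 21 kidney factors, 32 to 33 nephron genes, 64 renal carcinoma genes, 65 to 67 other-lineage genes under 1 CPM, 59 to 60 families, and shares of 14.1% to 15%, 6.48% to 7.13% and 3.73% to 3.79% for the 20 genes, mitochondrial protein genes and ribosomal protein genes. Readthrough counts moved to the downstream gene and halved counts (16404 genes detected) were also chosen after seeing the data. No paired analysis was possible because a single group was described and no test was made. Genes under 3 counts per library cannot be ranked at this depth.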

Other observations

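Gene families outside the lists, chosen after their values were seen, add to the picture. Of 44 collagen genes, 23 (52.3%) reached 1 CPM, beside 62.8% of protein-coding genes, led by COL6A2 (1557 ± 17.6 CPM), COL5A1 (1295 ± 12.1 CPM) and COL6A1 (1006 ± 1.94 CPM). Collagen VI forms microfibrils, and COL5A1 encodes a chain of the fibril-forming type V collagen. Of 12 laminin chains, 11 reached 1 CPM, led by LAMB1 (1090 ± 33.4 CPM) and LAMA5 (961.7 ± 19.8 CPM), components of basement membranes. Enzymes that handle aldehydes and ketones were also high. AKR1B10 (2979 ± 143 CPM) was followed by AKR1C3 (640 ± 32.5 CPM) and AKR1C1 (631.1 ± 45.7 CPM), whose sequences are close enough to share reads, and ALDH1A1, which makes retinoic acid, had 2051 ± 10.5 CPM. Cytochromes P450 were by contrast sparse, with 13 of 55 at 1 CPM and CYP4F11 first (114.1 ± 2.33 CPM).

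Among transporters, 189 of 336 solute carriers (56.2%) and 30 of 45 ABC transporters (66.7%) reached 1 CPM, beside 62.8% of protein-coding genes. ABCC3, an exporter of organic anions, had 1104 ± 15.2 CPM. CXC chemokines were low, with CXCL16 first (19.52 ± 1.15 CPM) and 5 of 13 at 0. APOL2, a neighbour of APOL1, had 346.3 ± 2.76 CPM. Of 374 olfactory receptor genes, 348 had no counts and 2 reached 1 CPM, which serves as a check of the background.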
